A study of Caenorhabditis elegans with 5 samples.

Results

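The closest genes of LIN-42 ChIP-seq peaks include 9 that encode regulators of transcription from families other than the homeobox: lag-1, pha-4, hlh-11, zip-6, nhr-5, efl-2, ztf-18, sdc-1 and dmd-3. Each is the closest gene of 1 region in the study's list of annotated regions, which holds the regions with a LIN-42::GFP peak in both replicates, so they account for 9 of 412 regions and for 9 of 338 closest genes. They were chosen by their gene family among regions that had been selected on the presence of peaks in both LIN-42::GFP lists, and with the endogenous LIN-42 peaks known. That each has LIN-42::GFP peaks is therefore given by the choice. The values below are a description, and no test was run on them.

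The LIN-42 protein of C. elegans is related to PERIOD, a repressor in the circadian clock of flies and mammals that acts on transcription through other, DNA-bound factors. Its expression rises and falls with each molt, and it times cell fates in larval development. The 9 genes belong to separate branches of transcriptional control, among them Notch signaling, organ identity, the cell cycle, dosage compensation and sexual differentiation, and most of their products bind DNA through unrelated protein domains.

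All 5 samples came from strain HML214, which carries a functional GFP-tagged LIN-42, grown at 20°C and collected as whole larvae late in the L4 stage. LIN-42::GFP replicates 1 and 2, from separate extracts, were precipitated with an antibody against GFP, and 1 library without a replicate, called endogenous LIN-42, with an antibody raised against a peptide found in LIN-42A and LIN-42B. That antibody was used on animals that also carry the tagged protein. The header of its peak list names no control, while each LIN-42::GFP list names an input. The paper states that input controls were used in calling all peaks, and this difference was not resolved here. The other 2 samples are inputs, without precipitation, and no library from animals without the tag was analysed here. Whole animals were used, so the tissue in which a region was bound is not known.

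After 1 tag was kept per position, 38236 tags were left in replicate 1, 43991 in replicate 2 and 122089 in endogenous LIN-42, since 95% to 99% of the aligned tags were redundant. The lists hold 946, 2580 and 1128 peaks, each called in its own library. Tag counts below are tags inside a peak, given for replicate 1, replicate 2 and endogenous LIN-42 in that order, and positions are ce10 coordinates.

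Every regulator gene had exactly 1 peak in each of the 3 lists at its region. Of all 412 annotated regions, 361 had a single peak in each LIN-42::GFP list. zip-6 had the most tags in both LIN-42::GFP lists, with 27 to 30 tags in every list, and ztf-18 had 4 to 6. The endogenous LIN-42 peak was present at 9 of 9 regions, where 77.2% of the 412 annotated regions have such a peak. The regions lay on 5 chromosomes, with 3 on chromosome IV, 2 each on chromosomes III and V, and 1 each on chromosomes II and X.

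lag-1 encodes the CSL protein, which binds DNA and switches its target genes when Notch is activated. Its region (chromosome IV, 6108548 to 6108683) lies in intron 10 of 11, 13215 bp from the start site, the greatest such distance of the 9 genes. The peaks held 12, 10 and 8 tags. These raw counts have overlapping 95% Poisson intervals (6.20 to 20.96, 4.80 to 18.4 and 3.45 to 15.8), which cover counting error only. They are not scaled to library size. Per 10000 tags left the values were 3.14, 2.27 and 0.655. The 3 summits fell within 5 bp.

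pha-4 encodes the FoxA factor that specifies the pharynx. Its region (chromosome V, 20756325 to 20756447) is annotated as a promoter, 496 bp from a start site. The same annotation gives 3264 bp as the distance to the gene, and these distances were not reconciled here. The peaks held 8, 8 and 5 tags, the last being the lowest count found in the endogenous LIN-42 list. The summits were the closest together of the 9 genes, within 2 bp over the 3 lists.

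hlh-11 encodes a basic helix-loop-helix factor related to mammalian AP4. Its region (chromosome III, 9621335 to 9621467) is of the promoter class, 660 bp from the start site. The peaks held 14, 11 and 14 tags, with summits within 4 bp. zip-6 encodes a bZIP protein, and its region (chromosome IV, 11215759 to 11215920) lies in intron 1 of 4, 2276 bp from the start site. Its peaks held 30, 28 and 27 tags, close to each other in raw number. Per 10000 tags left the values were 7.85, 6.36 and 2.21.

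ztf-18 encodes a zinc finger protein. Its region (chromosome III, 889077 to 889345) is annotated as downstream of the gene, 600 bp from it and 6413 bp from the start site. The peaks held 4, 6 and 6 tags, at or just above the lowest counts in the lists, which are 4 for LIN-42::GFP and 5 for endogenous LIN-42.

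nhr-5 belongs to the nuclear hormone receptors, a family that is very large in worms and in which small lipophilic ligands can control activity. Its region (chromosome IV, 15409360 to 15409704) is annotated as downstream of the gene, 1440 bp from it and 9230 bp from the start site. The peaks held 13, 6 and 34 tags, so that the raw count with endogenous LIN-42 lay above both others. Its interval (23.6 to 47.5) overlapped neither of theirs (6.92 to 22.2 and 2.20 to 13.1). These counts are not scaled to library size. Per 10000 tags left the values were 3.40, 1.36 and 2.78, so that endogenous LIN-42 then lay below replicate 1. The nhr-5 peaks were also the widest of the 9 genes in each list, at 345, 274 and 352 bp.

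Endogenous LIN-42 gave 64.2% of the tags at nhr-5 (95% Clopper-Pearson interval 49.8% to 76.9%), against 23.8% to 37.5% at the others and a median of 37.9% over the 318 regions with a peak in all 3 lists. The interval lay above that median at 1 of 9 genes, where it did at 23.6% of those regions, and below it at 0 of 9, where it did at 3.46%. The count with endogenous LIN-42 was the highest of the 3 lists at 3 of 9 genes, where it was at 53.5% of those regions. These genes are nhr-5, efl-2 and sdc-1. Shares and counts here are of raw tags, and the endogenous LIN-42 library had the most tags left.

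efl-2 encodes a member of the E2F family, which controls genes of cell cycle entry. Its region (chromosome II, 13405859 to 13406111) is of the promoter class, 106 bp from the start site and 34 bp from the gene. The peaks held 13, 13 and 14 tags and were 190, 253 and 216 bp wide.

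sdc-1 and dmd-3 are genes of sexual differentiation. sdc-1 encodes a zinc finger protein that acts in X chromosome dosage compensation and in sex determination of hermaphrodites, and the gene is itself on the X chromosome. Its region (chromosome X, 16275756 to 16275887) is annotated in intron 1 of 13, 125 bp from the start site. The peaks held 9, 8 and 10 tags, and the summits of both LIN-42::GFP replicates fell on the same base. dmd-3 encodes a DM domain factor that directs the remodeling of the male tail tip. Its region (chromosome V, 19650723 to 19650902) lies in intron 2 of 2, 4409 bp from the start site, and held 9, 7 and 9 tags.

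**Figure D1:**
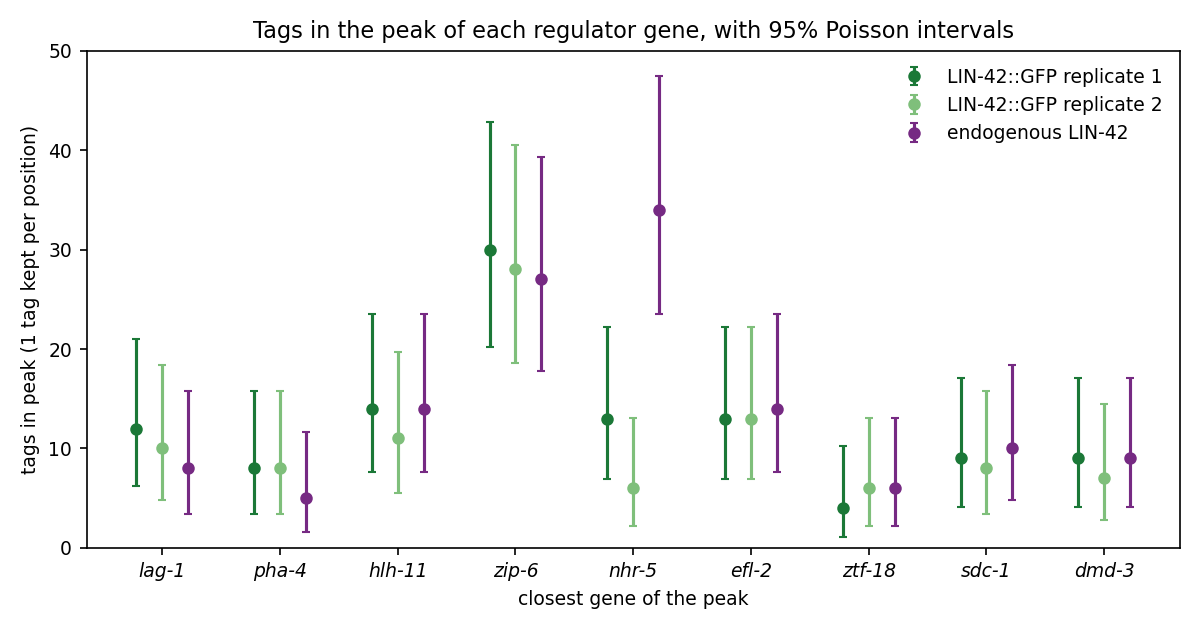
Tags in the peak of each regulator gene (vertical axis, number of tags with 1 kept per position) in LIN-42::GFP replicate 1, LIN-42::GFP replicate 2 and endogenous LIN-42, with bars for the 95% Poisson interval of each count. zip-6 was highest in both LIN-42::GFP lists, nhr-5 was highest with endogenous LIN-42 at 34 tags, and ztf-18 was lowest in replicate 1 at 4 tags.

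The order of the genes by tags was only partly resolved by the counts. In replicate 1 zip-6 came before hlh-11 (14 tags), efl-2 and nhr-5 (13 each) and lag-1 (12), and its interval (20.2 to 42.8) overlapped those of all 4. It did not overlap those of dmd-3 and sdc-1 at 9 tags, pha-4 at 8 or ztf-18 at 4. In replicate 2 the interval of zip-6 (18.6 to 40.5) overlapped those of efl-2 at 13 tags and hlh-11 at 11, and no others. With endogenous LIN-42, nhr-5 (34 tags) and zip-6 (27 tags, 17.8 to 39.3) came before hlh-11 and efl-2 at 14, and the interval of nhr-5 overlapped that of zip-6 alone. Neighbors in the order overlapped in each list.

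The comparison of the replicates depended on how the libraries were scaled. Scaled to the tags left in each library, the ratio of replicate 1 to replicate 2 ran from 0.767 at ztf-18 to 2.49 at nhr-5, with a median of 1.29. Its exact 95% interval held 1 at each gene, so that 0 of 9 lay off 1, where 16.7% of all annotated regions did (8.01% above and 8.74% below). Scaled to all aligned tags, redundant ones included (833169 in replicate 1 and 4334100 in replicate 2), 8 of 9 lay off 1. The share of all regions at this scaling is not given here, so that count cannot be set against them. With the tags left, the intervals are wide. The narrowest, that of zip-6, reached from 0.712 to 2.14, so that a ratio of 2 lies within it and within those of the other genes. The ratio was above 1 at 8 of 9 genes, where it was at 55.3% of all regions.

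The endogenous LIN-42 library had more tags in all. Per 10000 tags left, the regulator genes had 0.410 (pha-4) to 2.78 (nhr-5) tags there, against 1.05 to 7.85 in replicate 1 and 1.36 to 6.36 in replicate 2. The endogenous value was below both LIN-42::GFP values at 8 of 9 genes, nhr-5 being the exception, and at 75.2% of the regions with a peak in all 3 lists. The median tags of the 9 genes were 12, 8 and 10. Over the annotated regions with a peak in each list they were 11, 12 and 17, so that the median of the regulator genes was the lower in replicate 2 and endogenous LIN-42. zip-6 (28 tags) and efl-2 (13) were above the median region in replicate 2, and nhr-5 (34) and zip-6 (27) in endogenous LIN-42. Of the 9 genes, 7 had 6 tags or more in every list, pha-4 and ztf-18 being the exceptions. This held for 253 of the 318 regions with a peak in all 3 lists, or 61.4% of all 412 annotated regions. A MACS score of 100 or more in every list was reached by 6 of 9, and not by nhr-5, efl-2 and ztf-18. It was reached by 216 of the same 318 regions, or 52.4% of all 412. Regions without an endogenous LIN-42 peak cannot pass either limit, and all 9 genes have such a peak.

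The summits of the 3 libraries were close together at most of the genes. The distance from the lowest to the highest of the 3 was 2 bp at pha-4, 4 bp at hlh-11 and sdc-1, 5 bp at lag-1, 13 bp at zip-6, 21 bp at nhr-5, 23 bp at efl-2 and 26 bp at dmd-3. It was 145 bp at ztf-18, where replicate 2 had a broad peak of 269 bp with its summit on the side of lower coordinates, while the other summits were 3 bp apart. At 5 of 9 genes all summits fell within 20 bp, against 60.4% of the regions found in all 3 lists, and at 8 of 9 within 50 bp, against 72.3%. The median distance between the summits of replicate 1 and endogenous LIN-42 was 4 bp, with a highest value of 12 bp at efl-2, and it was 7 bp over all such regions. Between the LIN-42::GFP replicates the median was 11 bp, both for the 9 genes and for all annotated regions. Between replicate 2 and endogenous LIN-42 it was 12 bp for the 9 genes and 8 bp over the regions found in all 3 lists.

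**Figure D2:**
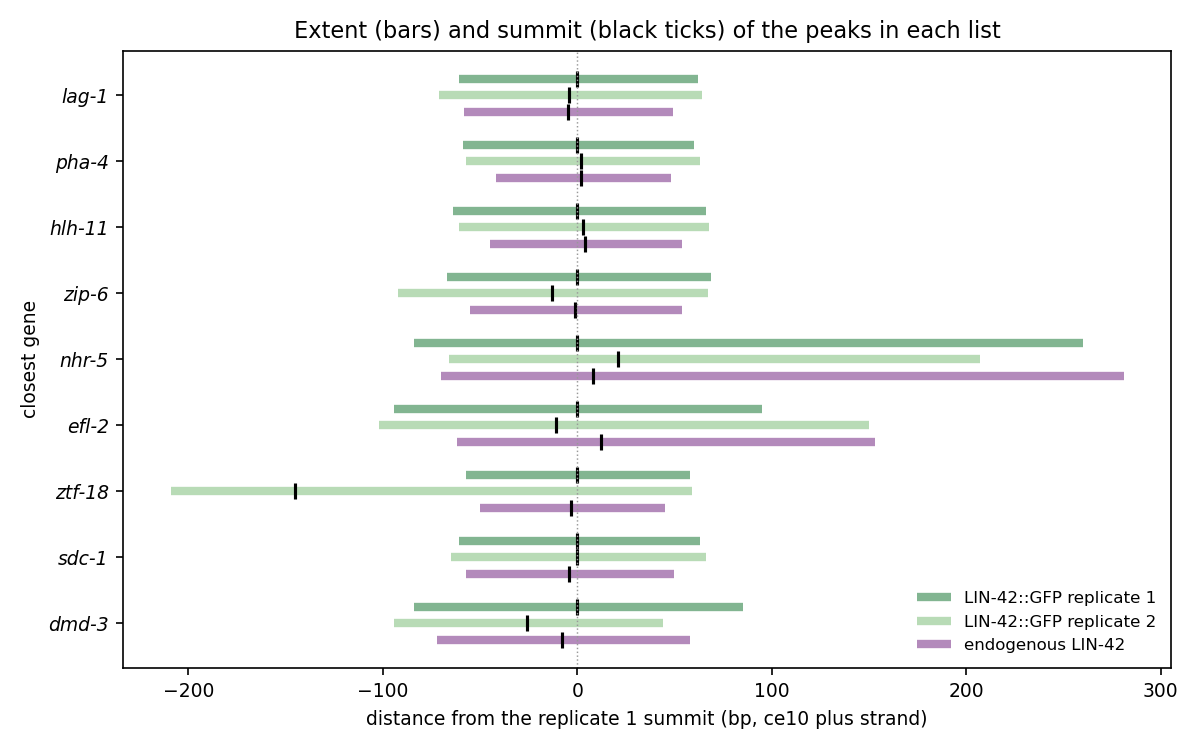
Extent of the peaks (bars) and their summits (black ticks) at each regulator gene in the 3 lists, as distance in bp from the replicate 1 summit along the ce10 plus strand. The summits of lag-1, pha-4, hlh-11 and sdc-1 lie within 5 bp of each other, the peaks of nhr-5 are the widest, and the replicate 2 summit of ztf-18 stands 145 bp from that of replicate 1.

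Fold enrichment placed the same peaks very differently in the 3 lists. MACS divides the tags at the summit by an estimate of the background, and the scale of the folds differs between lists, so each peak was ranked within its own list. zip-6 ranked high in each, at 5 of 946 in replicate 1 (728-fold), 108 of 2580 in replicate 2 (145-fold) and 83 of 1128 in endogenous LIN-42 (78.4-fold). So did dmd-3, at ranks 135 (218-fold), 187 (126-fold) and 100 (71.4-fold).

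sdc-1 had the widest range of ranks. In endogenous LIN-42 it was the highest of the 9 genes by fold, at rank 42 of 1128 (87.8-fold), and in replicate 1 it ranked 187 of 946 (183-fold). In replicate 2 it ranked 2539 of 2580 (16.5-fold), near the end of that list, although its 8 tags placed it at rank 350. A peak of the same list with 4 tags, 19845 bp away, had a fold of 82.66.

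Other genes also ranked low by fold but not by tags in replicate 2. efl-2 ranked 2521 by fold (17.9-fold) and 196 by tags, and pha-4 ranked 2414 (29.0-fold) and 350. nhr-5 ranked 2393 (31.4-fold) and 583, and ztf-18 ranked 2262 (41.9-fold) and 583. lag-1 ranked 1829 (66.3-fold) and 272, and hlh-11 ranked 1750 (69.7-fold) and 239. In this list zip-6 and dmd-3 alone of the 9 genes stood in the top 25% by fold, while each of the 9 stood there by tags. Ranks by tags are coarse, since peaks with equal tags share the highest rank among them. nhr-5 and ztf-18 reached rank 583 with 6 tags, where the list has a median of 5 and a lowest count of 4.

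In replicate 1 hlh-11 and lag-1 ranked 88 and 89 of 946, with folds of 291.52 and 291.19, and pha-4 ranked 160 (194-fold). efl-2, ztf-18 and nhr-5 were in the lower part of that list, at ranks 698, 699 and 802 (59.8-fold, 59.7-fold and 29.6-fold). Their peaks in replicate 1 were 190, 116 and 345 bp wide, the narrowest of the 9 genes at ztf-18 and the widest at nhr-5. In endogenous LIN-42 the lowest rank was that of ztf-18, at 438 of 1128 (42.02-fold).

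The median rank of the 9 genes by fold was at 16.9% of the list in replicate 1, 87.7% in replicate 2 and 17.8% in endogenous LIN-42, where the peak of highest fold comes first. By tags the medians were 21.5%, 13.6% and 32.4%. The gap between both measures in replicate 2 was found in all annotated regions too, whose medians there were 76.5% by fold and 8.26% by tags. By fold, the top 25% of the list held 6 of 9 genes in replicate 1 (45.4% of annotated regions), 2 of 9 in replicate 2 (26.9%) and 6 of 9 in endogenous LIN-42 (53.1%). By tags these counts were 5 (55.8%), 9 (82.5%) and 4 (60.7%), with the shares taken over the same regions.

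Some folds recur exactly in other peaks, so that ranks by fold are shared. The fold of pha-4 was that of 18 other peaks in replicate 1 and of 94 in endogenous LIN-42, and the fold of dmd-3 that of 15 others in replicate 1. The MACS false discovery rate was 0% for the peaks of the 9 genes in replicate 1, and in replicate 2 it ran from 0.18% at efl-2 to 2.86% at zip-6. In replicate 2 zip-6 also had the highest score of the 9 genes (547), and efl-2 had one of the lower scores (83.7). A lower rate there did not go with a higher score.

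**Figure D3:**
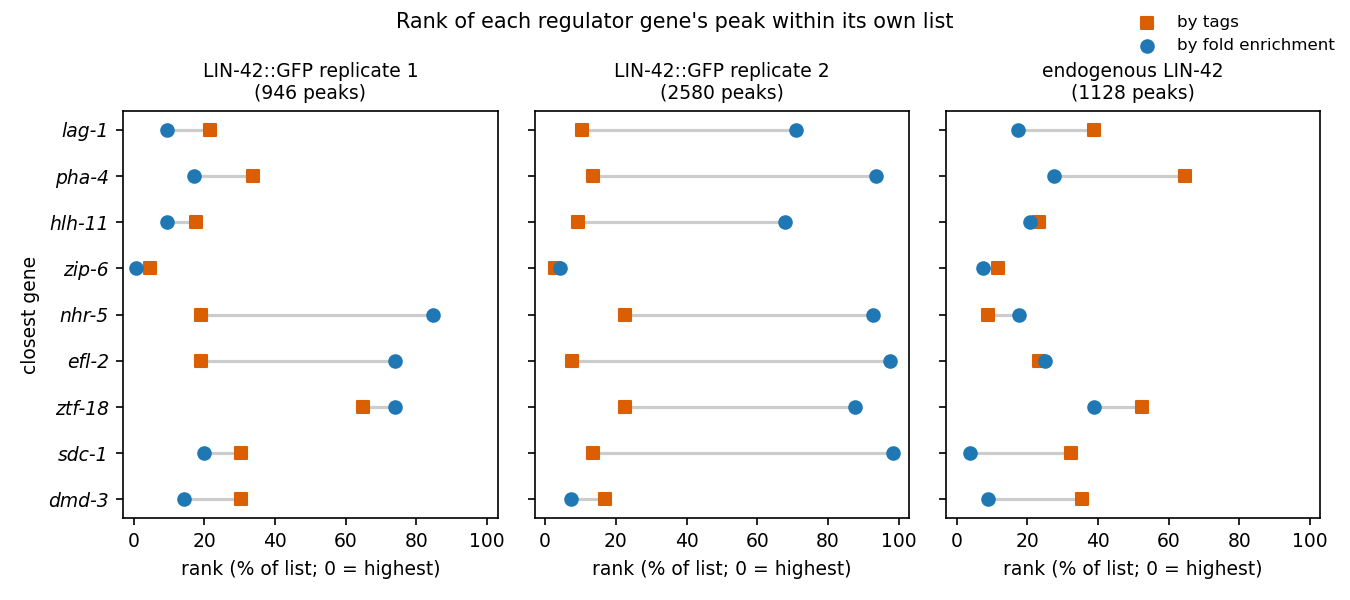
Rank of each regulator gene's peak within its own list, in percent of the list (the highest peak at the left), by number of tags (squares) and by fold enrichment (circles), in 1 panel for each of the 3 lists. In replicate 2 all 9 squares lie in the top 25%, and of the circles only those of zip-6 and dmd-3.

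By the annotation, 3 of 9 regions were in promoters (efl-2, pha-4 and hlh-11), 4 of 9 in introns (sdc-1, zip-6, dmd-3 and lag-1) and 2 of 9 downstream of the gene (ztf-18 and nhr-5). Among all annotated regions, promoters of coding and non-coding genes made up 38.3%, introns of coding genes 24% and regions downstream of coding genes 26%. The regions of efl-2, sdc-1, pha-4 and hlh-11 lay within 1000 bp of a start site, or 4 of 9, where 25% of all regions did. The others lay 2276 to 13215 bp away. The median distance was 2276 bp for the 9 genes and 2377.5 bp for all regions. The regions near start sites had 8 to 14 tags in the LIN-42::GFP lists, within the range of the others.

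**Figure D4:**
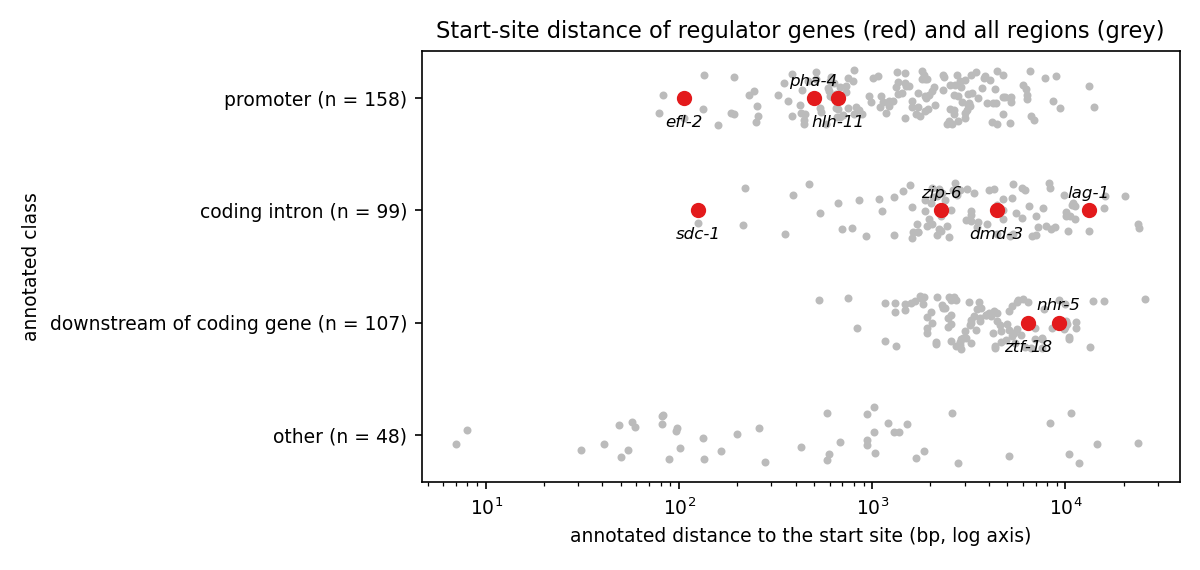
Annotated distance to the start site (horizontal axis, bp, log scale) of all 412 regions in grey and of the regulator genes in red, by annotated class. efl-2 and sdc-1, at 106 and 125 bp, are the closest of the 9 genes to a start site, and lag-1, at 13215 bp, the most distant.

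Other peaks lay within 20 kb of the region of every regulator gene, or 9 of 9, where 85.9% of all annotated regions had such a peak. Within 10 kb this held for 5 of 9 (69.9%) and within 50 kb for 9 of 9 (99%). There were 22 peaks within 20 kb, 5 in replicate 1, 13 in replicate 2 and 4 in endogenous LIN-42. They held few tags, 4 to 9 with a median of 5, and 8 of the 22 overlapped a peak of another list. Replicate 2 had such a peak at 9 of 9 genes (80.1% of all regions), replicate 1 at 3 of 9 (53.9%) and endogenous LIN-42 at 4 of 9 (52.4%).

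efl-2 had the densest surroundings. On the side of higher coordinates, replicate 2 and endogenous LIN-42 had overlapping peaks 395 and 404 bp away, with 9 and 5 tags (chromosome II, 13406507 to 13406700 and 13406516 to 13406635), and replicate 1 had no peak there. On the other side, 1221 and 1227 bp away, replicates 2 and 1 had peaks of 7 and 5 tags that form the region of pinn-4, the neighboring gene. A replicate 1 peak of 5 tags lay 1620 bp away, with no counterpart in the other lists. Of the 9 genes, efl-2 alone had a further peak within 2000 bp.

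At dmd-3, replicates 1 and 2 had peaks 9181 and 9255 bp away, with 6 and 4 tags, which form the annotated region of Y43F8C.7. At hlh-11, replicate 1 and endogenous LIN-42 had overlapping peaks 12412 and 12350 bp away, of 5 and 6 tags. The remaining peaks were found in a single list. Among these were 2 of replicate 2 at lag-1, at 6309 and 16589 bp, and 3 of replicate 2 at sdc-1, at 17549, 19363 and 19845 bp. The last of these was the most distant peak inside the 20 kb limit, and the nearest outside it lay 20241 bp from the region of hlh-11.

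**Figure D5:**
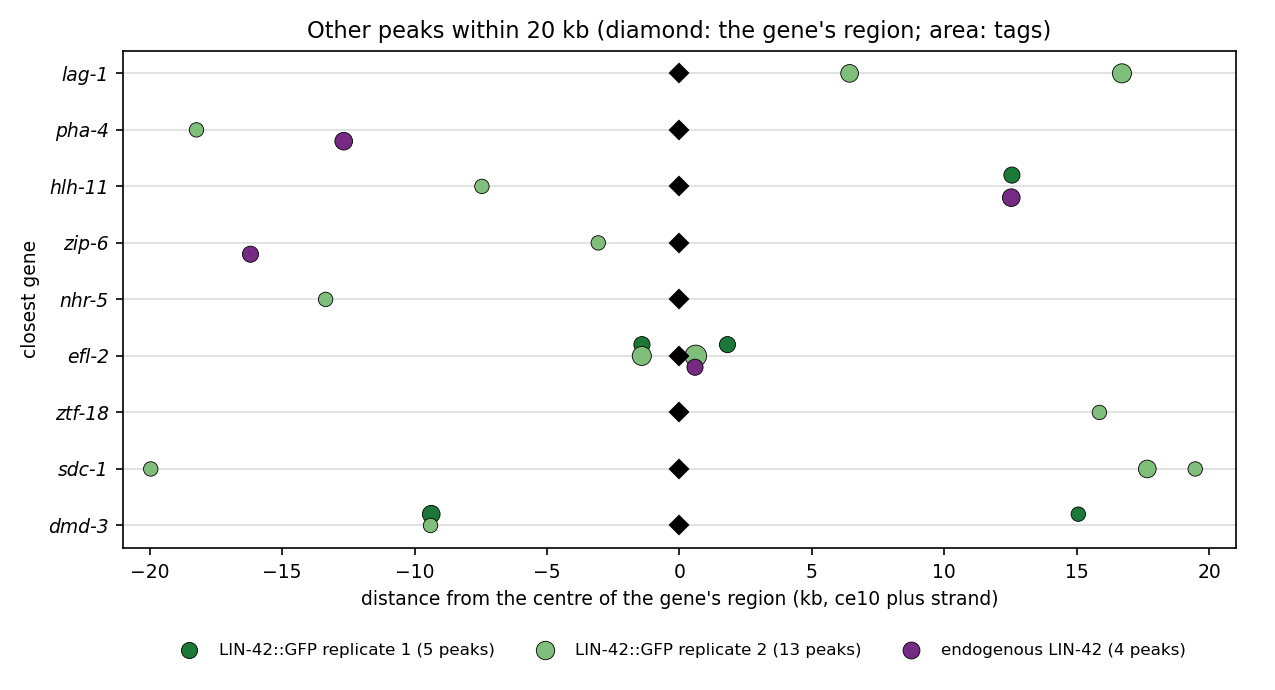
Other peaks (circles, with area in proportion to tags) within 20 kb of the region of each regulator gene (diamonds), as distance in kb from the centre of the region along the ce10 plus strand, colored by list. Peaks of 2 lists coincide beside efl-2, hlh-11 and dmd-3, and the other circles stand alone.

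Related genes were looked up by name among the closest genes of all 412 regions. Of 18 genes of the Notch pathway, from ligands such as lag-2 through the receptors lin-12 and glp-1 to nuclear partners such as sel-8, 1 was listed, lag-1. Likewise 1 was listed in each other group, which was efl-2 among 10 genes of the E2F and Rb group, sdc-1 among 18 genes of dosage compensation and sex determination, dmd-3 among 11 DM domain genes (10 of them found in the RefSeq table), and pha-4 among 20 forkhead genes and genes linked to pha-4. Of the RefSeq gene symbols that begin with hlh-, zip-, nhr- and ztf-, numbering 25, 12, 269 and 24, 1 each was listed, which was hlh-11, zip-6, nhr-5 and ztf-18. Since each group was drawn up around a gene of the 9, it holds at least 1 listed gene by the choice. Of all 19983 protein-coding symbols in the RefSeq table, 229 (1.15%) were listed, with 245 of the 338 closest genes found in that table by symbol, so counts of 1 in groups of this size say little about a group. A region is assigned to 1 closest gene, so a gene that is not listed can still lie near a peak.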

How the data were processed

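Reads of 76 nt were aligned by the authors to ce10 with Bowtie2, and peaks were called from uniquely aligned reads in each library with MACS 1.4.2 at a p-value cutoff of 1e-05. The deposited tag counts are raw, with 1 tag kept per position. The deposited score is the MACS transform of the p-value, the authors' fold is a ratio of tags at the summit to the background, and the deposited false discovery rate is a percent. The inputs named in the list headers could not be matched to the sample titles.

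Regions, classes and distances come from the study's annotated region list, read as counting from 0 and printed from 1. All 9 regions equal the union of both LIN-42::GFP peaks. Peaks were assigned by an overlap of at least 1 bp, the largest where several overlapped. Intervals are exact (Poisson, Clopper-Pearson) and cover counting error only. Interval and overlap code was tested on simulated data. The genes and gene lists were chosen with earlier results of these data known, and all 9 genes are named. Gene families and gene order come from the RefSeq table of WBcel235, without coordinates.

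The overlap, summit, score, tag, false discovery rate and window limits, the scaling, the ranked measure and the replicates were varied. Python 3.11.15, pandas 2.3.3, NumPy 2.4.6, SciPy 1.17.1 and Matplotlib 3.10.9 were used. Reads, signal tracks, inputs and sequences were not analysed here.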

Additional observations from a re-analysis of the deposited data

How the results depend on the processing

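All 9 genes kept a peak in the 3 lists with an overlap of 50% and with summits within 200 bp. They also did with a false discovery rate of 5% or less in both LIN-42::GFP lists. That limit was not applied to endogenous LIN-42, whose list gives no such rate. The count was 6 with a score of 100 or more, 7 with 6 tags or more, and 8 without clustered peaks, which leaves out efl-2. Shares of all regions under the overlap, summit, false discovery rate and clustering limits are not given here. The counts under these limits therefore cannot be set against all regions. The count with an endogenous LIN-42 peak was 9 without replicate 1 and 9 without replicate 2. Each of these peaks overlaps both LIN-42::GFP peaks of its gene, so this count could not change and gives no support. Scaled by all aligned tags, 8 of 9 replicate ratios lay off 1, with no share over all regions beside them. This count was 0 with the tags left and 0 with tags summed over regions. The scaled ratio moves with the totals used. In replicates 1 and 2 these were 833169 and 4334100 aligned tags, against 38236 and 43991 tags left. A difference between the replicates was not tested. The median rank in replicate 2 was 87.7% by fold, 25.97% by score and 13.6% by tags, and the cause was not tested. Another peak lay within 10 kb at 5 of 9 genes, since a smaller window holds fewer peaks. With peak midpoints in place of summits, median distances changed by at most 2.5 bp. No paired test was run between the lists, which cover the same 9 regions. At these tag counts, a region without a peak is not shown to be unbound.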

Other observations

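The 9 genes differ in the genes around them. In the WBcel235 gene order, piRNA genes, which encode small RNAs that silence transposons in the germline, made up 38 of the 40 nearest genes at nhr-5 and 32 of 40 at lag-1, both on chromosome IV. At zip-6, also on chromosome IV, they made up 4 of 40, and at the other genes 0 to 2 of 40. Of all annotated genes on chromosome IV, 74.7% are piRNA genes.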
